A study of Rattus norvegicus with 6 samples.

Results

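The genes described here carry phosphate across the kidney tubule or belong to the hormone systems that set how much phosphate and active vitamin D the body keeps. There are 9 of them, of 15645 gene symbols on the array, and they were taken as every non-control probe named for a RefSeq transcript of Slc17a1, Slc17a3, Slc34a1, Slc34a3, Kl, Vdr, Cyp27b1, Cyp24a1 or Pth1r. This gave 13 of the 61537 probes, with 2 probes for each of 4 genes and 1 probe for each of the other 5. All 13 were well above background on all 6 arrays, no spot was saturated, and all 9 genes passed the filter on dim probes.

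RNA of the renal cortex, the outer kidney with its glomeruli and proximal tubules, was measured on 1-colour Agilent arrays, 1 array per animal. The chlorothalonil group was 3 male Sprague-Dawley rats dosed for 4 weeks with the chlorinated fungicide chlorothalonil at 500 mg/kg/day, and the corn oil group was 3 such rats given the vehicle alone for 4 weeks. All animals were 5 weeks old when bought and ate the same basal diet. The source name of chlorothalonil replicate 3 names ethylenediamine dihydrochloride, although chlorothalonil is given by its title and by the labels for treatment and dose, so results that rest on it are also given without it.

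The proximal tubule takes most filtered phosphate back from the urine through the sodium-coupled carriers Slc34a1 and Slc34a3 in its brush border. Parathyroid hormone, through its receptor Pth1r, and the bone hormone FGF23, through FGF receptors with the co-receptor Klotho (Kl), remove these carriers from the membrane. The same tubule makes active vitamin D with Cyp27b1 and breaks it down with Cyp24a1, and the hormone acts through the receptor Vdr. Slc17a1 and Slc17a3 were first described as phosphate carriers of this tubule, and in humans both are known to move urate and other organic anions into the urine.

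Of the 9 genes, 2 changed, Slc17a1 and Slc17a3, and both rose with chlorothalonil. Slc17a1 was 1.95-fold and Slc17a3 2.41-fold as high in chlorothalonil rats as in corn oil rats. The main brush border phosphate carriers, the hormone receptors and the vitamin D enzymes did not pass the test. Signals below are the spot's processed signal divided by the array's 75th percentile, written as relative signal, and each log2 fold change is chlorothalonil minus corn oil from limma across 29115 features, called as passed below an adjusted p (Benjamini-Hochberg) of 0.05. Over all features, 3.12% passed in either direction, 1.30% as higher and 1.82% as lower. The groups did not overlap for 4 of the 9 genes, against 27.7% of all features, and an unadjusted p under 0.05 was reached by 4 of 9, against 19.7% of all features. The median log2 fold change of the 9 was −0.06, and that of all features was 0.0035. The 9 genes were chosen with earlier results of the same arrays known, so nothing is read from their counts.

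Slc17a1 (RefSeq NM_133554) and Slc17a3 (NM_153622) are next to each other among the named protein-coding genes of rat chromosome 17, within a row of 4 SLC17 genes. Their promoters are shown because the pair rose together, with that of Slc34a1, a main brush border carrier on the same chromosome whose change did not pass, for comparison. Each line is the 250 bases before the RefSeq start, 5′ to 3′ on the gene's strand, in the GRCr8 build. Capitals mark 2 kinds of letters: in Slc17a3 the centre of the palindrome bound by the liver and kidney factor HNF1, without its outer letters, and in Slc34a1 a single arm of that palindrome, GTTAAT or, on the other strand, ATTAAC.
Slc17a1, chr17:41681175-41681424, minus strand: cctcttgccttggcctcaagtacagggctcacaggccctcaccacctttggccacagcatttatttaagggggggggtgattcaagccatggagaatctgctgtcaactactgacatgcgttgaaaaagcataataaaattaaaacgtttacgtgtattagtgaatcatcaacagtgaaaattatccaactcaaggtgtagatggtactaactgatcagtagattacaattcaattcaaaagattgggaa
Slc17a3, chr17:41723110-41723359, minus strand: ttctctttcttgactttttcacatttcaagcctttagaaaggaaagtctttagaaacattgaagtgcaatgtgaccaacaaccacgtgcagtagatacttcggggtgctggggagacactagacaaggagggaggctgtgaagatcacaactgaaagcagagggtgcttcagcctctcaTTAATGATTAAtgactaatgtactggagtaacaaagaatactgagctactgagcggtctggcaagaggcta
Slc34a1, chr17:9238984-9239233, minus strand: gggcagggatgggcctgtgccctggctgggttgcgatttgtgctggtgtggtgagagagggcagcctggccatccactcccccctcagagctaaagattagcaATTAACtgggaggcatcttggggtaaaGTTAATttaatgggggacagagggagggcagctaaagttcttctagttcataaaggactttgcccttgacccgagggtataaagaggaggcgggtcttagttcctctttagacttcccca

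The centre of the HNF1 palindrome, its own reverse complement, was found in 32 of 33469 promoters of this length, which is 0.0956%, and among the 8 of the 9 genes with a promoter in the table it was in Slc17a3 alone. It lies from 71 to 61 bases before the start. This shortened motif and the single arm were chosen after the sequences were seen. The single arm, searched on both strands and nested in the whole palindrome, was in 2160 promoters (6.45%) and in Slc34a1 alone of the 8. The whole HNF1 palindrome was in 1 promoter of the table and in none of the 8. The core of the antioxidant response element, TGACNNNGC or GCNNNGTCA on the other strand, through which NRF2 acts, was in 3373 promoters (10.1%). Of the 8 it was only in Pth1r, so it was not found in these windows of Slc17a1 or Slc17a3. These matches describe letters in the windows.

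For Slc17a1 the relative signal was 6.65, 6.19 and 6.55 in chlorothalonil replicates 1 to 3, against 3.10, 3.48 and 3.38 in corn oil replicates 1 to 3. Every chlorothalonil array lay well above every corn oil array. The log2 fold change was 0.96 ± 0.07 (SE, n = 3 each, limma adjusted p 0.00671), with a 95% interval of 0.78 to 1.14. Without chlorothalonil replicate 3 it was 0.95 ± 0.09, with an adjusted p of 0.0442 in limma.

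For Slc17a3 the relative signal was 49.7, 38.7 and 38.5 in chlorothalonil replicates 1 to 3, against 18.8, 18.6 and 15.2 in corn oil replicates 1 to 3. Chlorothalonil replicate 1 was the highest and corn oil replicate 3 the lowest, and the groups did not overlap. The log2 fold change was 1.27 ± 0.14 (SE, n = 3 each, limma adjusted p 0.0149), with a 95% interval of 0.92 to 1.62. The change did not pass without chlorothalonil replicate 3, at 1.33 ± 0.16 with a limma adjusted p of 0.0611. It passed in 1 of the 6 fits that left out an array, the one without corn oil replicate 1. The other 5, without corn oil replicates 2 and 3 and each chlorothalonil replicate, gave 1.15 to 1.33 and adjusted p values of 0.0523 to 0.0611. Each of the 2 genes has 1 probe, and how much either probe also reads the other SLC17 genes was not tested.

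The chlorothalonil arrays shared 1 slide and the corn oil arrays another, each scanned on its own day, so slide and treatment cannot be told apart. Of the 10 control probes for RNA added in the laboratory, 8 stood well above background on every array, and their log2 differences between the groups ran from −0.34 to 0.05, with 7 of 8 below 0. In whole cortex, more cells of a type and more RNA per cell cannot be told apart. The 8 markers of the early proximal tubule, the home of the phosphate carriers, had a summed relative signal of 365 to 374 in chlorothalonil rats, against 404 to 436 in corn oil rats. None of these 8 passed in limma, their median log2 fold change was −0.21 and all were well above background. Of the 8, 6 lay below 0 and 2 above. The groups did not overlap for Slc7a7 at −0.45, the glucose carrier Slc5a2 at −0.35, Slc5a12 at −0.27 and, in the other direction, the bicarbonate carrier Slc4a4 at 0.17. Slc6a19 was at 0.12 and Lrp2 at −0.03, and most of the sum comes from a few bright probes, Slc5a2 the brightest. The 6 markers of the late proximal tubule had a summed relative signal of 345 to 472 in chlorothalonil rats, against 351 to 402 in corn oil rats, with a median of 0.04, 4 above 0 and 2 below. Corn oil replicate 1 stood apart in some of them. Slc7a13 had 29.3, 31.6 and 78.7 in chlorothalonil replicates 1 to 3, against 5.12, 42.3 and 52.5 in corn oil replicates 1 to 3. Slc22a7 had 0.225, 0.340 and 0.802 in chlorothalonil replicates 1 to 3, against 0.0614, 0.384 and 0.292 in corn oil replicates 1 to 3. The same array was the lowest for the fibroblast marker Dcn, with 5.67, 7.10 and 8.42 in chlorothalonil replicates 1 to 3, against 2.65, 6.19 and 6.66 in corn oil replicates 1 to 3. It was the highest array for Kl, Cyp27b1, Pth1r and Slc34a3. Without corn oil replicate 1, Pth1r was at −0.067 and Slc34a3 at −0.19. The values of Kl and Cyp27b1 without that array are given below. The part of these marker values in the results was not tested.

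**Figure D1:**
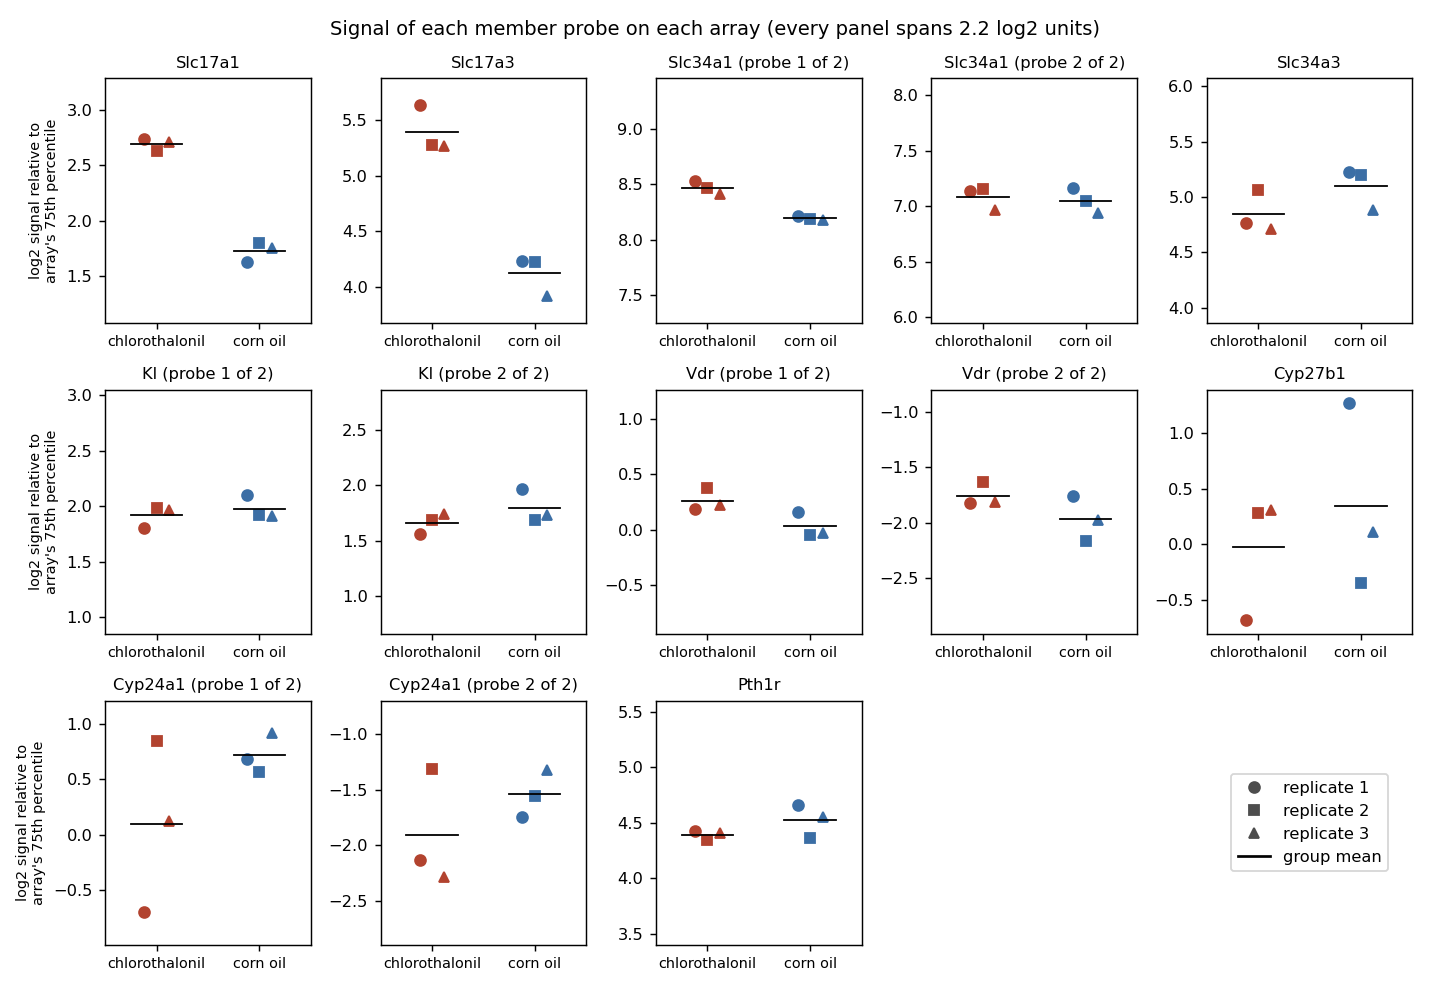
Log2 signal relative to the array's 75th percentile (vertical axis) of the 13 probes of the 9 genes, with chlorothalonil rats on the left of each panel and corn oil rats on the right. Symbols are the replicates and lines the group means; the groups stand well apart for Slc17a1 and Slc17a3, while Cyp27b1 and Cyp24a1 spread widely within a group.

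The genes beside the pair did not pass. Slc17a4, an anion carrier on the far side of Slc17a1, had relative signals of 1.38, 1.36 and 1.01 in chlorothalonil replicates 1 to 3, against 1.13, 0.998 and 0.841 in corn oil replicates 1 to 3, on its brightest probe. The groups overlapped on that probe, with a log2 fold change of 0.34 ± 0.17 (SE, limma adjusted p 0.338). A dimmer probe gave 0.44 ± 0.12 with no overlap of the groups (limma adjusted p 0.14 in the fit of single probes). The remaining probe gave 0.49 ± 0.19 with overlap (limma adjusted p 0.251). Slc17a2, on the far side of Slc17a3, had 0.517, 0.528 and 0.569 in chlorothalonil replicates 1 to 3, against 0.488, 0.435 and 0.566 in corn oil replicates 1 to 3. Its log2 fold change was 0.12 ± 0.11 (limma adjusted p 0.594), with a 95% interval of −0.15 to 0.40, which lies below that of Slc17a1. Next to it, the linker histone gene H1f1 was at 0.32 ± 0.24. Slc17a2, Slc17a4 and H1f1 are named for their position, and their difference from the pair was not tested.

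**Figure D2:**
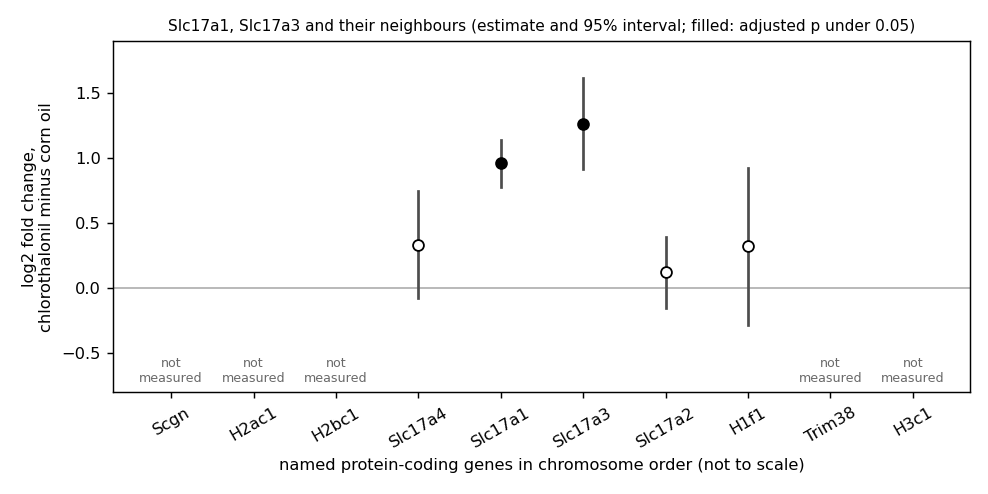
Log2 fold change (vertical axis, limma estimate with 95% interval) of the named protein-coding genes around Slc17a1 and Slc17a3 in chromosome order, not to scale; filled points passed. Slc17a1 at 0.96 and Slc17a3 at 1.27 stand above Slc17a4 at 0.34 and Slc17a2 at 0.12, and 5 genes were not measured.

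Slc34a1, the carrier known to do most phosphate uptake in the rodent kidney, has 2 probes with unlike estimates. The difference between the 2 probes was not tested. On the brighter probe the relative signal was 370, 354 and 340 in chlorothalonil replicates 1 to 3, against 298, 292 and 290 in corn oil replicates 1 to 3, with no overlap. On the other it was 141, 142 and 125 in chlorothalonil replicates 1 to 3, against 144, 132 and 123 in corn oil replicates 1 to 3, and the groups overlapped throughout. The log2 fold change was 0.27 ± 0.06 (SE, limma adjusted p 0.0886) on the first, and 0.04 ± 0.09 (limma adjusted p 0.869) on the second. The first probe's 95% interval was 0.12 to 0.43. With quantile normalization the first probe had 0.02, and with a normexp background it had −0.069, so its direction was not settled. With trend and robust fitting it passed, with a limma adjusted p of 0.023.

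Slc34a3, the other sodium-coupled carrier of the brush border, had relative signals of 27.3, 33.4 and 26.2 in chlorothalonil replicates 1 to 3, against 37.3, 36.7 and 29.5 in corn oil replicates 1 to 3. The lowest corn oil array lay within the chlorothalonil range. The log2 fold change was −0.25 ± 0.14 (SE, limma adjusted p 0.38), with a 95% interval of −0.59 to 0.09.

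The difference in response between the SLC17 pair and Slc34a1 was taken within each array. The log2 signal of Slc17a1 minus that of Slc34a1 was 0.69 higher with chlorothalonil, and that of Slc17a3 minus Slc34a1 was 0.99 higher, with the brighter Slc34a1 probe. For both, every chlorothalonil array lay above every corn oil array. The exact two-sided permutation p was 0.10 for each of the 2, which is the smallest that 3 against 3 arrays can give, so this test cannot reach the threshold.

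**Figure D3:**
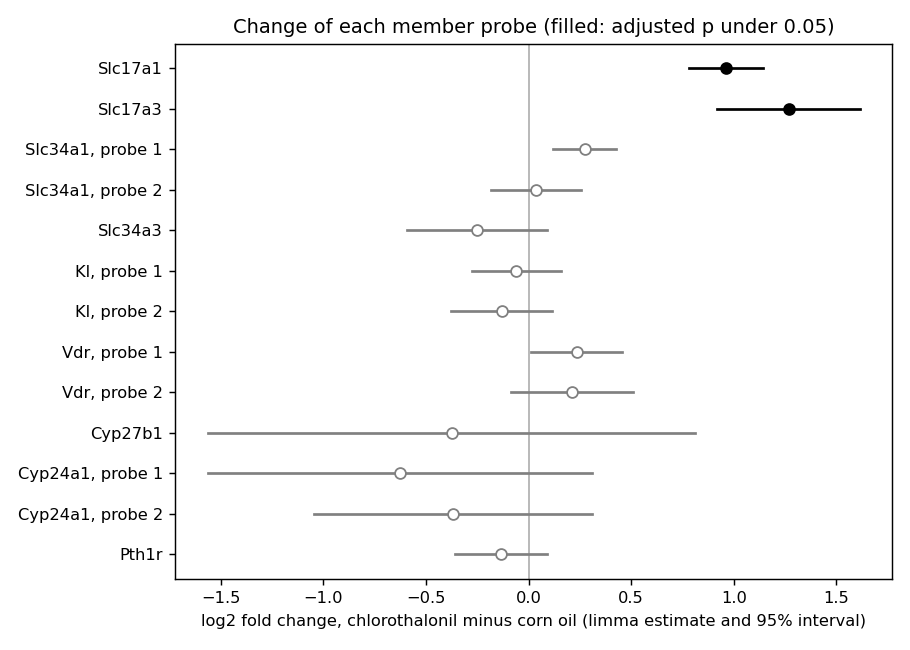
Log2 fold change of each of the 13 probes (horizontal axis, limma estimate and 95% interval, chlorothalonil minus corn oil); filled points passed. Slc17a1 and Slc17a3 lie apart from 0, and the widest intervals are those of Cyp27b1 and Cyp24a1. The 2 probes of Slc34a1 have unlike estimates with intervals that overlap.

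The receptors of the phosphate hormones differed little. Pth1r, which answers parathyroid hormone, had relative signals of 21.5, 20.3 and 21.2 in chlorothalonil replicates 1 to 3, against 25.3, 20.6 and 23.4 in corn oil replicates 1 to 3. Corn oil replicate 2 lay within the chlorothalonil range, and the log2 fold change was −0.13 ± 0.09 (SE, limma adjusted p 0.476). Its 95% interval ran from −0.36 to 0.09.

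Kl, made mostly in the distal convoluted tubule, had 3.49, 3.95 and 3.90 in chlorothalonil replicates 1 to 3, against 4.28, 3.78 and 3.76 in corn oil replicates 1 to 3, on its brighter probe. Its other probe had 2.95, 3.21 and 3.34 with chlorothalonil, against 3.90, 3.21 and 3.31 with corn oil. On both probes chlorothalonil replicate 1 was the lowest array and corn oil replicate 1 the highest, and the other 4 arrays lay together. The log2 fold changes were −0.06 ± 0.09 (SE, limma adjusted p 0.758) and −0.13 ± 0.10, and the 95% interval of the first was −0.27 to 0.16. Without corn oil replicate 1 the first was 0.0019.

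Vdr, the nuclear receptor of active vitamin D, had 1.14, 1.30 and 1.17 in chlorothalonil replicates 1 to 3, against 1.12, 0.969 and 0.983 in corn oil replicates 1 to 3. The groups did not overlap on this probe and overlapped on the dimmer one. The log2 fold changes were 0.23 ± 0.09 (SE, limma adjusted p 0.234) and 0.21 ± 0.12, and the 95% interval of the first was 0.01 to 0.46. With normexp it was 0.06.

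The 2 vitamin D enzymes were the least even from animal to animal. Cyp27b1, which makes the active hormone, had relative signals of 0.623, 1.22 and 1.24 in chlorothalonil replicates 1 to 3, against 2.42, 0.787 and 1.08 in corn oil replicates 1 to 3. Corn oil replicate 1 was the highest array and chlorothalonil replicate 1 the lowest, with the other 4 in between and mixed. The log2 fold change was −0.37 ± 0.48 (SE, limma adjusted p 0.72), with a 95% interval of −1.56 to 0.81, and it was 0.089 without corn oil replicate 1. The interval therefore holds changes in both directions.

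Cyp24a1, which inactivates vitamin D, had 0.616, 1.80 and 1.09 in chlorothalonil replicates 1 to 3, against 1.60, 1.48 and 1.88 in corn oil replicates 1 to 3. Its dimmer probe had 0.228, 0.404 and 0.205 in chlorothalonil replicates 1 to 3, against 0.297, 0.341 and 0.400 in corn oil replicates 1 to 3. On both probes chlorothalonil replicates 1 and 3 lay below every corn oil array, and chlorothalonil replicate 2 lay high, within the corn oil range on the brighter probe and just above it on the dimmer. The log2 fold changes were −0.63 ± 0.38 (SE, limma adjusted p 0.424) and −0.37 ± 0.28. The 95% interval of the first was −1.56 to 0.31. Without chlorothalonil replicate 2 that value was −1.01 ± 0.27 (limma adjusted p 0.206), and without chlorothalonil replicate 1 it was −0.23 ± 0.24. The SD over the 3 chlorothalonil arrays was 0.77 on the log2 scale, against 0.18 over the corn oil arrays. For Cyp27b1 it was 0.57 with chlorothalonil, against 0.83 with corn oil.

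The 7 genes that did not pass also did not pass without chlorothalonil replicate 3, the array with the differing source name. The log2 fold changes of the carriers were then 0.30 for Slc34a1 and −0.18 for Slc34a3. The receptors had −0.08 for Kl, −0.14 for Pth1r and 0.25 for Vdr, and the enzymes −0.55 for Cyp27b1 and −0.64 for Cyp24a1. All 7 kept their direction. The differences within arrays were 0.65 for Slc17a1 minus Slc34a1 and 1.03 for Slc17a3 minus Slc34a1.

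Related genes were read from 6 lists, with 50 measured genes that are not among the 9. Of these 1 rose, 0 fell and 49 did not pass in limma. An unadjusted p under 0.05 was reached by 10 of the 50, against 19.7% of all features. The counts given below for single lists belong to these 10, and nothing is read from them. In 16 (32.0%) the groups did not overlap, against 27.7% of all features. The gene that rose was Abcc4, an exporter of urate and conjugated anions on the brush border, in the list of urate and organic anion carriers. Its relative signal was 24.5, 19.8 and 20.3 in chlorothalonil replicates 1 to 3, against 4.81, 4.82 and 5.13 in corn oil replicates 1 to 3, and the log2 fold change was 2.13 ± 0.10 (SE, limma adjusted p 0.00297). All 4 of its probes lay between 2.12 and 2.33. The other 6 measured genes of that list did not pass on the probe that represents them, and its median was 0.20. Slc22a13, an anion carrier of the brush border, was at 0.20 ± 0.11 on that probe, while its 2 dimmer probes were at 1.45 ± 0.25, which passed in the fit of single probes (limma adjusted p 0.0493), and at 2.14 ± 0.84, which did not. The first of these 2 had 0.0946, 0.0685 and 0.133 with chlorothalonil, against 0.0405, 0.0335 and 0.0310 with corn oil, replicates 1 to 3. The second had 0.045, 0.051 and 0.138 with chlorothalonil, against 0.00516, 0.042 and 0.017 with corn oil. These 2 rest on low corn oil signals, and the filter can keep a dim probe through 1 group alone. They are therefore not read as support for a rise, and the size was not settled. Also among the other 6 genes were Slc22a12, the urate reuptake carrier, at 0.55 ± 0.14 (limma adjusted p 0.107), and Abcg2, another urate exporter, at −0.26 ± 0.07 (limma adjusted p 0.113). In both genes the groups did not overlap.

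Among 7 other phosphate carriers and partners limma passed 0, and 2 reached an unadjusted p under 0.05, with a median log2 fold change of 0.18. The smallest p was that of Slc9a3, the sodium-proton exchanger of the brush border, at 0.41 ± 0.14 (SE, limma adjusted p 0.197). Its probes disagreed, at 0.41, 0.47 and −0.22. Slc20a2, a housekeeping phosphate carrier, was at 0.17 ± 0.07, and Xpr1, the phosphate exporter, at −0.27 ± 0.10.

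None of the 5 measured scaffold and anchor genes of the brush border passed in limma (0 of 5), and 1 reached an unadjusted p under 0.05. That was Pdzk1ip1, a small membrane protein that binds the scaffold PDZK1. Its relative signal was 38.3, 37.6 and 33.5 in chlorothalonil replicates 1 to 3, against 63.8, 53.5 and 45.9 in corn oil replicates 1 to 3, with a log2 fold change of −0.57 ± 0.13 (SE, limma adjusted p 0.0961). The groups did not overlap. The scaffolds that hold Slc34a1 in the membrane were at 0.18 ± 0.08 for Pdzk1 and 0.15 ± 0.07 for Nherf1.

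Among 11 measured genes of hormone signalling limma passed 0, and 1 reached an unadjusted p under 0.05, with a median log2 fold change of 0.08. That was Pde4d, a phosphodiesterase that breaks down cyclic AMP, at 0.48 ± 0.14 (SE, limma adjusted p 0.138), with its probes between 0.08 and 0.49. Fgfr4, one of the FGF receptors of the tubule, was at 0.07 ± 0.07 and Fgfr1 at 0.19 ± 0.12. The hormone genes Pth and Fgf23, made outside the kidney, did not pass the filter on dim probes.

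For vitamin D uptake and metabolism limma passed 0 of 10 measured genes, and 2 reached an unadjusted p under 0.05, with a median of −0.04. Cyp27a1, a sterol hydroxylase that can also hydroxylate vitamin D, had relative signals of 0.658, 0.548 and 0.514 in chlorothalonil replicates 1 to 3, against 0.437, 0.370 and 0.383 in corn oil replicates 1 to 3. The groups did not overlap and the log2 fold change was 0.53 ± 0.12 (SE, limma adjusted p 0.0873). Lrp2, the receptor that takes up vitamin D with its binding protein, was at −0.03 ± 0.06 on its brighter probe, where the groups overlapped. Its other probe was at −0.17 ± 0.06 (limma adjusted p 0.221), with every chlorothalonil array below every corn oil array.

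For vitamin D targets and calcium transport limma passed 0 of 10 measured genes, and 1 reached an unadjusted p under 0.05, with a median of −0.05. Calb1, the calcium-buffering calbindin of the distal tubule, had 3.38, 4.12 and 2.79 in chlorothalonil replicates 1 to 3, against 5.09, 4.92 and 5.01 in corn oil replicates 1 to 3. Every chlorothalonil array lay below every corn oil array, with a log2 fold change of −0.56 ± 0.14 (SE, limma adjusted p 0.115). Slc8a1, the sodium-calcium exchanger of the distal tubule, was at −0.26 ± 0.14 (limma adjusted p 0.347), also with no overlap. All 6 of its probes lay below 0, and 1 of them passed in the fit of single probes, at −0.41 ± 0.07 (limma adjusted p 0.0442). The smaller calbindin S100g was at −0.36 ± 0.17, and its groups overlapped. Of the distal tubule markers, 4 of 6 were measured, with a summed relative signal of 20.3 to 32.1 in chlorothalonil rats, against 25.4 to 31.7 in corn oil rats. Most of that sum is Slc12a3, at −0.06 ± 0.20. The median of the 4 was −0.16, with 3 below 0, and Calb1 and Slc8a1, which belong to both lists, are 2 of these 3. The part of these markers in the Calb1 value was not tested. Slc22a12, Slc22a13, Abcg2, Slc8a1, Slc20a2, Xpr1, Pdzk1, Nherf1, Fgfr1, Fgfr4, Lrp2, S100g, Slc12a3 and the proximal tubule and fibroblast markers were not named by the rule and were picked with their values in view.

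**Figure D4:**
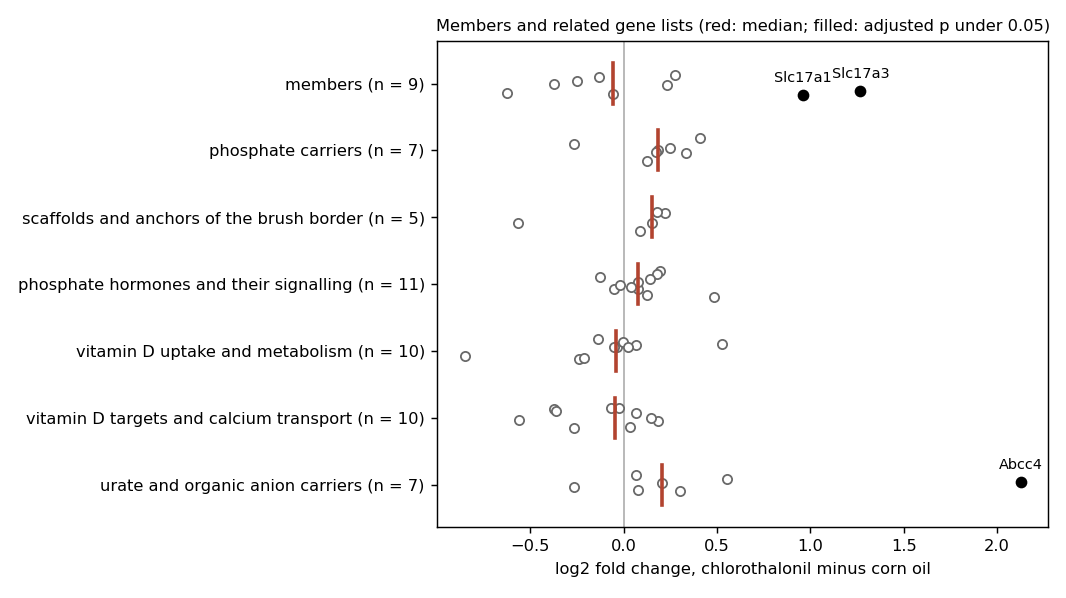
Log2 fold change (horizontal axis, chlorothalonil minus corn oil) of the 9 phosphate and vitamin D genes, labelled members, and of the 6 related lists, 1 point per gene with vertical jitter; filled points passed and red lines are medians. The points that passed are Slc17a1, Slc17a3 and Abcc4, and the list medians lie between −0.05 and 0.20.

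Genes whose 6 array values, centred on the corn oil mean, lay closest to those of Slc17a1 and Slc17a3 were sought among 11906 features with a gene symbol. For Slc17a1 these were Tkt, the transketolase of pentose phosphate metabolism, Entpd5, a nucleoside diphosphatase, and Nox4, an NADPH oxidase. Their root mean square differences from Slc17a1 were 0.05, 0.05 and 0.08 on the log2 scale. For Slc17a3 they were Acaa1a, a peroxisomal thiolase, Ccdc92 and Tmem205, at 0.11, 0.11 and 0.12. All 6 passed in limma, with log2 fold changes of 0.90 to 0.96 beside Slc17a1 and of 1.18 to 1.36 beside Slc17a3. The search favours genes with a change of the same size, so it is a description over 6 arrays.

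Across the 14 lists of kidney and other cell type markers, limma passed 0 of the 66 measured entries, and 14 reached an unadjusted p under 0.05. Markers of the proximal tubule, the thick ascending limb, the collecting duct and the podocyte were measured in full. Red blood cell markers had a summed relative signal of 556 to 602 in chlorothalonil rats, against 475 to 497 in corn oil rats. The median was 0.26 over 4 of 5 genes. All 4 lay above 0, from 0.24 to 0.45, with no overlap of the groups, against 27.7% of all features. The same 4 reached an unadjusted limma p under 0.05, and none passed. Of the 5 adrenal markers, Cyp11b1, Cyp11b2 and Star did not pass the filter on dim probes. The part of these values in the results was not tested.

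**Figure D5:**
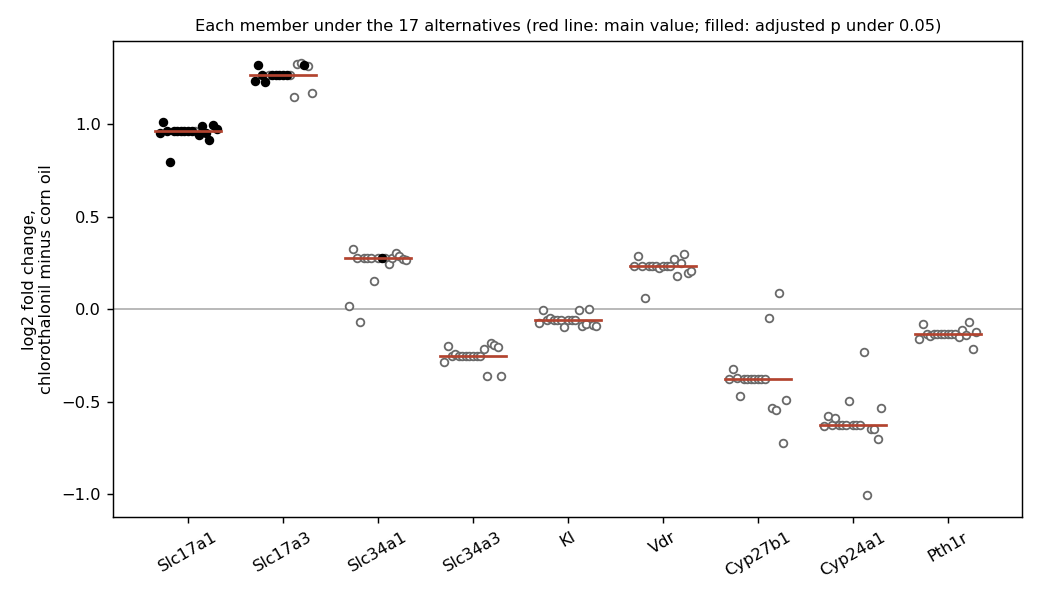
Log2 fold change (vertical axis, chlorothalonil minus corn oil) of each of the 9 genes under the 17 alternative settings, with the main value as a red line; filled points had an adjusted p under 0.05. Slc17a1 passed in 16 of the 17 settings and Slc17a3 in 10, and both stayed above 0.79 in all of them.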

How the data were processed

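Single-colour Agilent arrays of renal cortex RNA from 6 rats were used, 1 array per animal. Feature Extraction 10.7 is named in the submitters' processing notes, and per the file headers the authors' scanner output gives a background-subtracted intensity (processed signal) for each spot with flags for background, saturation and outliers. The median intensity and background intensity deposited for each spot served only for normexp with an offset of 50. The deposited value table is a ratio, with every processed signal of an array over 1 constant near that array's 75th percentile, with no centring on genes; its column medians were 0.105, 0.105 and 0.106 for chlorothalonil replicates 1 to 3, against 0.107, 0.109 and 0.112 for corn oil replicates 1 to 3. It was used as an alternative.

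Here the log2 of the processed signal minus that of the array's 75th percentile was tested. Control spots and outlier spots were left out. Probes well above background on all 3 arrays of the chlorothalonil group, the corn oil group or both were kept. At least 2 arrays of each group had to have a value. Of the probes of a gene, the one with the highest mean represented it, giving 29115 features. Groups were compared with limma 3.58.1 (lmFit and eBayes) in R 4.3.3 with Benjamini-Hochberg adjustment over all features, after a run on simulated data. The fits of single probes used each probe as a feature. Animals were separate, so p-values measure the spread between animals, and 3 arrays per group limit the precision; no spot counts exist. Between 38234 and 41711 probes stood well above background on an array. Corn oil replicate 3 had the fewest, 62.1%, against 66.3% to 67.8% on the other arrays. It was also the lowest array for Slc17a3. Without corn oil replicate 3, Slc17a3 was at 1.17 (limma adjusted p 0.0531). The part of this lower share in the Slc17a3 value was not tested.

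The genes and lists were chosen with earlier results of these data known. The rule named the 9 genes and, from each related list, the members that passed or else the one with the smallest p. It also named the 3 nearest patterns of each of the 9 that passed. Other genes were named for their position beside the pair, because they were not measured, or with their values in view. Promoters and names came from RefSeq in GRCr8, another build than that of the array design, so no probe coordinates are given; 8 of the 9 genes had a promoter. Shared replicate numbers did not pair the animals (correlations of same-numbered deviations 0.09, 0.02 and 0.05). Slide could not be fitted as a block, since each slide holds 1 group. Alternatives were quantile normalization, median scaling, the value table, normexp, 2 other dim-probe filters, keeping outlier spots, 2 other probe rules, trend and robust fitting, the replicate block and leaving out each array.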

Additional observations from a re-analysis of the deposited data

How the results depend on the processing

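Over the 17 alternatives Slc17a1 stayed between 0.79 and 1.01 on the log2 scale and passed in 16, and Slc17a3 stayed between 1.15 and 1.33 and passed in 10. The count of features that passed was 909, and it was 1373 with normexp and 172 with no filter on dim probes. Median scaling gave 435 higher and 368 lower features, against 378 and 531 in the main setting. With no filter 1 of the 9 genes passed, and Slc17a3, at 1.27, had a limma adjusted p of 0.0532; more features tested and another variance prior come with that setting. Leaving out 1 array at a time gave 112 to 388 features, 1 to 2 of the 9 genes, and 1.15 to 1.33 for Slc17a3, with fewer samples in each fit. With the replicate block limma passed 0 features, while 5271 had an unadjusted p under 0.05, and 0 of the 9 genes passed, with 3 at an unadjusted p under 0.05. Slc17a1 was then at 0.96 (limma adjusted p 0.0783) and Slc17a3 at 1.27 (0.0770). The numbers only name the samples: chlorothalonil replicates 1 and 2 correlated best with their own number and replicate 3 did not. Slc34a1 was at −0.069 with normexp, and with trend and robust fitting it stood at 0.27 and passed (limma adjusted p 0.0230). Without corn oil replicate 1, Kl was at 0.0019 and Cyp27b1 at 0.089; over all arrays left out in turn Kl ran from −0.092 to 0.0019 and Cyp27b1 from −0.72 to 0.089. The cause of these shifts was not tested. Slc34a3, Vdr, Cyp24a1 and Pth1r kept their direction and did not pass in any of the 17. With 3 arrays per group, the intervals of Cyp27b1 and Cyp24a1 hold changes of more than 1 log2 unit. All 13 probes of the 9 genes were well above background on all 6 arrays. Vdr, at 0.23 in the main setting, was still at 0.06 with normexp.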
